A study of Mus musculus with 12 samples.

Results

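The insulin-like growth factor (IGF) genes of C2C12 cells, a mouse myoblast line, were followed through the depletion of 2 ubiquitin ligase subunits. The members were taken by name and comprise the ligand gene Igf1, the receptor gene Igf1r, 6 genes of IGF-binding proteins (Igfbp2 to Igfbp7) and the docking protein genes Irs1 and Irs2, which are 10 of the 54532 genes in the deposited table. All 10 passed the filter on low counts, which left 15122 genes for testing. The groups are named by the siRNA that the cells received: siCONTROL (a control siRNA), siKEAP1, siCCNF, and siKEAP1/siCCNF for cells given the siRNAs against both targets. Each group holds 3 libraries that the labels call biological replicates. Every group came from the same line and was harvested 48 hours after 30 nM siRNA. The labels give DMEM with 5% serum for all groups, whereas the study's methods give another serum percentage for growing these cells, so the serum level is uncertain. KEAP1 is the substrate adaptor through which a CUL3 ligase marks the antioxidant transcription factor NRF2 for degradation, and CCNF (cyclin F) is the substrate receptor of an SCF ligase. The comparisons ask which of the IGF genes changed with each depletion and whether the effect of siKEAP1 differed once CCNF was depleted as well.

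IGF1 is secreted and binds the receptor tyrosine kinase IGF1R, which phosphorylates IRS1 and IRS2, and these recruit phosphoinositide 3-kinase and so switch on AKT and mTOR. IGF-binding proteins hold the ligand outside the cell, where they can withhold it from the receptor or carry it there, and proteases release it again. In muscle cells the pathway is known for driving both proliferation and differentiation, and C2C12 cells can make ligand and binding proteins of their own.

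The 4 promoter windows that follow belong to members that the results turn on, namely the ligand, the binding protein with the most mRNA in control cells, the binding protein that rose most, and a docking protein that rose in every depletion. Each runs 5′ to 3′ on the strand of the gene, from 250 bases before to 50 bases after the RefSeq start in GRCm38.p6. They lie at chr10:87860861-87861160 (plus strand) for Igf1, chr1:72874816-72875115 (minus strand) for Igfbp5, chr11:99040994-99041293 (plus strand) for Igfbp4 and chr8:11008880-11009179 (minus strand) for Irs2. The RefSeq start lies inside the deposited gene span for Igf1 and upstream of it for Irs2. Capitals mark the motifs found by a search for fixed letters.
Igf1: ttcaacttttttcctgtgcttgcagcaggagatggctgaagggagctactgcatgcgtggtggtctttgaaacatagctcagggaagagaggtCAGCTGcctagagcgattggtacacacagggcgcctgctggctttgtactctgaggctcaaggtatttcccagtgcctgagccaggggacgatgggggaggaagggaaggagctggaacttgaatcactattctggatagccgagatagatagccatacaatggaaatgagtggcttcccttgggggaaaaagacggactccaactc
Igfbp5: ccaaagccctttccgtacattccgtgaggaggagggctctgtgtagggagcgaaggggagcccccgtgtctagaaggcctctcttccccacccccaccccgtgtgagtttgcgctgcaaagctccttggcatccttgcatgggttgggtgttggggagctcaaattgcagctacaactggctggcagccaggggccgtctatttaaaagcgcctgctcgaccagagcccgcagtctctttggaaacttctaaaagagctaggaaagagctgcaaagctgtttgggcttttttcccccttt
Igfbp4: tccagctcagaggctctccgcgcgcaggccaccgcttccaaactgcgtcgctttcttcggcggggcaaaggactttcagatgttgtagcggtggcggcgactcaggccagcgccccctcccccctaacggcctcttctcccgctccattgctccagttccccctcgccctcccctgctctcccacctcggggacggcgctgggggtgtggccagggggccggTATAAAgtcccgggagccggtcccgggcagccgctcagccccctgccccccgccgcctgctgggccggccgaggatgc
Irs2: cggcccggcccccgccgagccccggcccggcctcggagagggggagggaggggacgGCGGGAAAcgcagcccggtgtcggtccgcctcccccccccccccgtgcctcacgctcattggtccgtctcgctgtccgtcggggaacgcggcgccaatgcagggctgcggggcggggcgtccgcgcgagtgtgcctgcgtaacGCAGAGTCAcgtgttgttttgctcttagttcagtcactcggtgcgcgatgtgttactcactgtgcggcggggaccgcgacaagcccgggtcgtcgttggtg
The search covered 5 motifs. The core of the antioxidant response element, TGACNNNGC on either strand, is the sequence that NRF2 is known to bind. It was found in 3 of the 11 windows of the 10 members, 1 each for Irs1, Irs2 and Igfbp2, beside 12.4% of 32851 windows of all genes. In the Irs2 window it begins 51 bases before the start. The E2F site (TTTCCCGC, TTTGGCGC or TTTCGCGC on either strand) was found for Irs2 alone, beside 1.84% of all windows. The TATA box letters TATAAA on the printed strand were found for Igfbp4 alone, 28 bases before the start, beside 8.32% of all windows. The muscle E box CAGCTG was found for Igf1 alone, beside 16.3%, and the FOXO site TGTTTAC on either strand in none of the 11 windows, beside 3.65%. No searched motif was found in the Igfbp5 window. The matches describe these windows only.

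Library totals ran from 18464209 to 37743198 counts. Keap1 mRNA stood at 14.4% of the siCONTROL mean in the siKEAP1 libraries and at 27.5% in the siKEAP1/siCCNF libraries, and Ccnf mRNA at 25.3% in the siCCNF libraries and at 30.2% in the siKEAP1/siCCNF libraries. Ccnf mRNA was also lower in the siKEAP1 libraries, at 73.2% (log2 fold change -0.45, adjusted p = 0.000258). In 2 libraries, siCONTROL replicate 1 and siKEAP1/siCCNF replicate 3, the deviation of genes from their group mean fell with gene length (r = -0.305 and -0.276 over 15122 genes). Values without these libraries are given for many, though not all, of the results that they touch. Of the myoblast markers, 6 of 7 could be tested and all 6 were lower in each depletion. Levels are given as CPM, read counts divided by library sizes (in Mreads) that were scaled by the TMM method. Markers of differentiating muscle summed to 58.0 to 134 CPM in the siCONTROL libraries, 3.58 to 3.86 in siKEAP1, 16.1 to 22.8 in siCCNF and 6.53 to 7.30 in siKEAP1/siCCNF. The adipocyte list summed to 2.24 to 3.40 CPM in siKEAP1 and at most 0.395 in any other library. Its only tested gene, Fabp4, rose in siKEAP1 (adjusted p = 2.45e-06) and less in siKEAP1/siCCNF (log2 fold change 1.63, adjusted p = 0.0457). The other genes of that list had at most 2 counts in any library. The endothelial list summed to 1.45 to 2.04 CPM in siKEAP1 and at most 0.739 in any other library, and of its 2 tested genes Tek rose there (adjusted p = 0.0106). The part of these lists in the results was not tested. Less RNA per cell and fewer cells of a kind cannot be told apart in such bulk libraries.

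Most of the IGF genes changed in each depletion. After siKEAP1, 3 of the 10 members rose (Igfbp4, Igfbp6 and Irs2) and 5 fell (Igf1, Igfbp2, Igfbp3, Igfbp5 and Igfbp7) at an adjusted p under 0.05 in edgeR's quasi-likelihood test, where 20.4% of all genes tested rose and 20.2% fell. After siCCNF, 4 rose (Igf1r, Igfbp4, Igfbp7 and Irs2) and 5 fell (Igf1, Igfbp2, Igfbp3, Igfbp5 and Igfbp6), beside 22.5% and 25.5% of all genes. After siKEAP1/siCCNF, 4 rose (Igf1r, Igfbp4, Igfbp7 and Irs2) and 4 fell (Igf1, Igfbp2, Igfbp3 and Igfbp5), beside 20.6% and 23.6%. A change over 2-fold was passed by 5 members in each of the 3 comparisons, where 11.5%, 11.4% and 10.3% of all genes did so. The median size of the change was 0.85, 0.95 and 1.09 on the log2 scale for the members and 0.30, 0.37 and 0.34 for all genes tested. These 3 comparisons share the siCONTROL libraries.

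**Figure D1:**
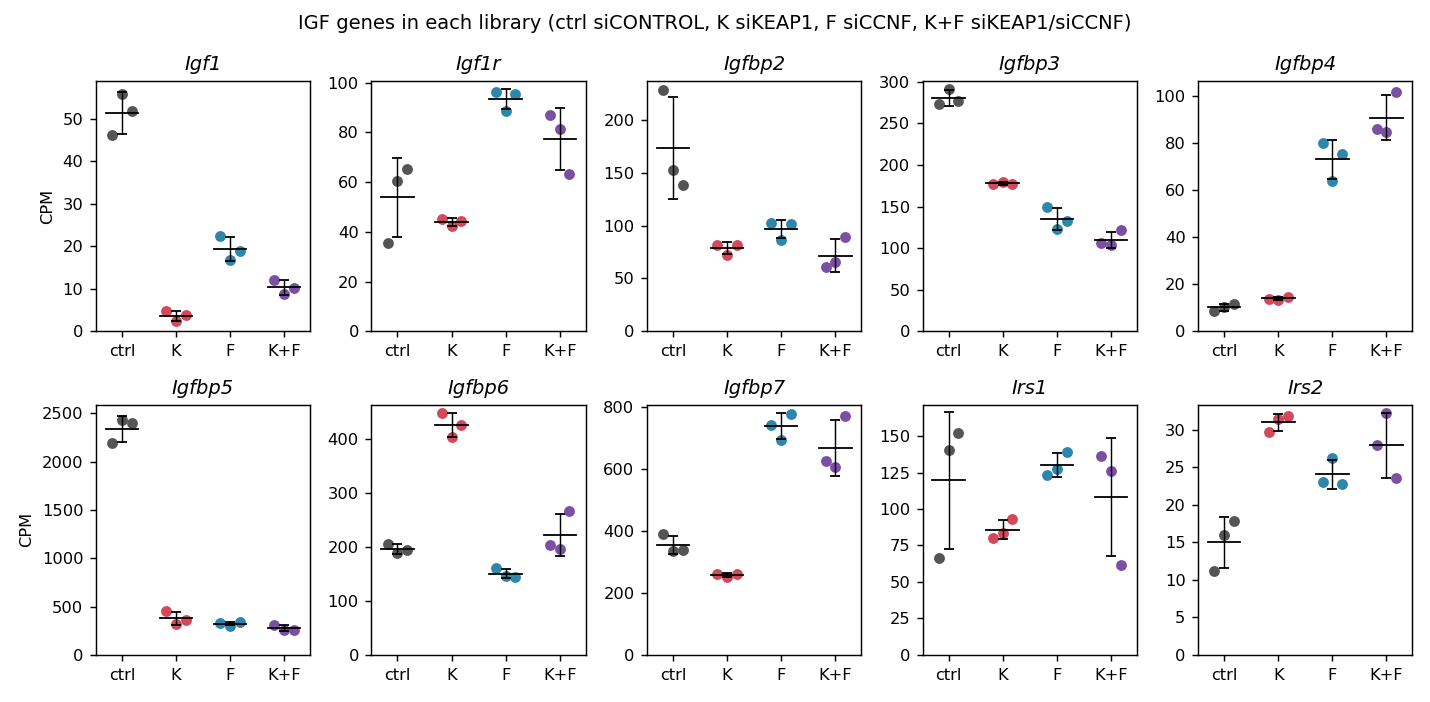
Level in CPM (scaled by TMM) of the 10 IGF genes, 1 point per library, with the mean as a line and the SD of 3 libraries as bars, on axes that start at 0. Igf1 and Igfbp5 are high in siCONTROL alone, Igfbp4 and Igfbp7 in the CCNF-depleted groups (siCCNF and siKEAP1/siCCNF) and Igfbp6 in siKEAP1.

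The ligand gene was lowest after siKEAP1. Igf1 (chr10:87858265-87937042, plus strand, GRCm38) stood at 46.2, 55.9 and 51.9 CPM in the siCONTROL libraries. It stood at 4.65, 2.39 and 3.73 CPM after siKEAP1, at 22.5, 16.8 and 18.8 after siCCNF, and at 12.1, 8.66 and 10.2 after siKEAP1/siCCNF. The 4 groups did not overlap. Igf1 fell by 3.85 on the log2 scale after siKEAP1 (SE 0.20, 14.4-fold, adjusted p = 1.3e-08), by 1.40 after siCCNF (SE 0.17, adjusted p = 1.84e-05) and by 2.32 after siKEAP1/siCCNF (SE 0.18, adjusted p = 4.45e-07). The double depletion lay between the single ones. It was 2.88-fold above siKEAP1 (adjusted p = 4.09e-05) and 1.89-fold below siCCNF (adjusted p = 0.00964). The difference from siCCNF missed the threshold without siCCNF replicate 1 (log2 fold change -0.80, adjusted p = 0.0541) and without siKEAP1/siCCNF replicate 2 (-0.81, adjusted p = 0.0528). The groups stand in the same order as the summed markers of differentiating muscle. Within siCONTROL the order differs, as replicate 1, which follows gene length, had the highest marker sum (134 CPM, against 59.5 and 58.0) and the lowest Igf1. The part of these markers in the level of Igf1 was not tested. Igf2, the other ligand gene, was not tested for lack of counts, with at most 1 count in a siCONTROL library, 0 in siKEAP1 and at most 4 in any library.

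The receptor gene went the other way with CCNF. Igf1r (chr7:67952827-68233668, plus strand) stood at 35.7, 60.6 and 65.4 CPM in the siCONTROL libraries, at 45.1, 42.3 and 44.4 after siKEAP1, at 96.2, 88.7 and 95.5 after siCCNF and at 87.1, 81.4 and 63.3 after siKEAP1/siCCNF. The siCCNF libraries lie above every siCONTROL library, while the double depletion overlaps with siCONTROL through its replicate 3. Igf1r rose 1.74-fold after siCCNF (log2 fold change 0.80, SE 0.18, adjusted p = 0.0022) and 1.44-fold after siKEAP1/siCCNF (0.52, SE 0.18, adjusted p = 0.0276). The latter missed the threshold without siKEAP1/siCCNF replicate 1 (adjusted p = 0.104) or replicate 2 (adjusted p = 0.0853). Without both libraries that follow gene length the rises were smaller, at 0.57 (adjusted p = 6.62e-07) and 0.41 (adjusted p = 5.96e-05). Over the 12 fits that left out a library they ran from 0.57 to 0.96 and from 0.29 to 0.68. After siKEAP1 the log2 fold change was -0.29 (SE 0.18, adjusted p = 0.214). Without siCONTROL replicate 1, the lowest siCONTROL library for this long gene, it was -0.53 and passed (adjusted p = 0.00158). It also passed with all libraries kept, at -0.31 with no filter on low counts (adjusted p = 0.0387) and at -0.38 with the trend with gene length removed (adjusted p = 0.00165). Against siKEAP1, the double depletion was 1.76-fold higher (adjusted p = 0.00176).

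Among related receptors, Insr, the insulin receptor gene, rose by 0.56 on the log2 scale after siCCNF (SE 0.18, adjusted p = 0.021) and by 0.47 after siKEAP1/siCCNF (SE 0.18, adjusted p = 0.049). Its siCONTROL values were 24.8, 40.8 and 42.3 CPM, the lowest being from replicate 1, and siKEAP1/siCCNF replicate 3, at 37.4 CPM, overlapped with them. Without siCONTROL replicate 1 neither change of Insr passed (0.34 and 0.25, adjusted p = 0.0506 and 0.151), while without both libraries that follow gene length both did (0.34 and 0.42, adjusted p = 0.000113 and 4.81e-05). Igf2r, whose product clears IGF2 by taking it to lysosomes, passed in none of the 6 comparisons, with log2 fold changes of 0.40, 0.30 and 0.18 against siCONTROL and adjusted p of 0.0561, 0.12 and 0.38. Without both libraries Igf2r passed after siKEAP1, at 0.19 (adjusted p = 0.00763).

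The leading binding protein gene was Igfbp5 in siCONTROL, Igfbp6 after siKEAP1 and Igfbp7 in the CCNF-depleted groups. On the deposited scale that divides by gene length (FPKM, fragments per kilobase and per depth of the library), their summed mRNA was 1037 ± 34.5 (SD, n = 3) in siCONTROL, 759 ± 37.3 with siKEAP1, 902 ± 49.3 with siCCNF and 887 ± 122 with siKEAP1/siCCNF. In siCONTROL, Igfbp5 held 37.4% of that sum, ahead of Igfbp7 with 28.0% and Igfbp6 with 16.9%. After siKEAP1, Igfbp6 held 50.3% and Igfbp5 8.28%. In the CCNF-depleted groups Igfbp7 held 66.9% (siCCNF) and 61.8% (siKEAP1/siCCNF), and Igfbp5 5.91% and 5.24%. The leading gene of each group did not overlap with the next in its 3 libraries. Igfbp4 stayed the smallest share in every group, from 0.22% in siCONTROL to 2.32% after siKEAP1/siCCNF. The highest sums in siCONTROL (1076) and in siKEAP1/siCCNF (1027, against 834 and 799) were from the 2 libraries that follow gene length. Set against the ligand, the summed FPKM of the binding protein genes was 203 ± 25.9 (SD, n = 3) times that of Igf1 in siCONTROL, 2242 ± 676 with siKEAP1, 471 ± 52.2 with siCCNF and 871 ± 162 with siKEAP1/siCCNF. These are shares of mRNA and say nothing of protein.

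**Figure D2:**
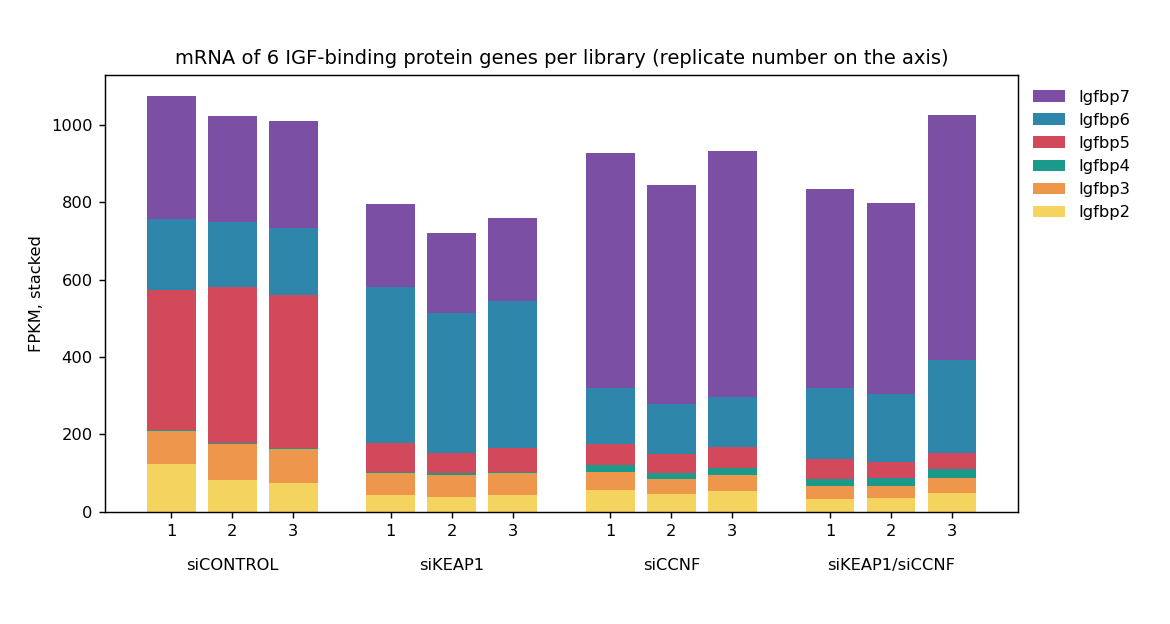
FPKM of Igfbp2 to Igfbp7 stacked per library, with the replicate number under each bar and the group below it, on an axis that starts at 0. The sum lies between 721 and 1076 in the 12 libraries, while the leading gene is Igfbp5 in siCONTROL, Igfbp6 in siKEAP1 and Igfbp7 in the CCNF-depleted groups.

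Igfbp5, a binding protein of muscle and bone that also binds extracellular matrix, fell most among them. It lies at chr1:72857932-72874884 on the minus strand, tail to tail with Igfbp2 (chr1:72824503-72852474, plus strand) at 5457 bases. Its level was 2188, 2435 and 2405 CPM in the siCONTROL libraries, 452, 322 and 366 after siKEAP1, 330, 302 and 338 after siCCNF and 313, 259 and 258 after siKEAP1/siCCNF. All 9 depleted libraries were below the siCONTROL libraries, and siCCNF overlapped with either of the other depletions. The fall was 2.62 on the log2 scale after siKEAP1 (SE 0.12, 6.16-fold, adjusted p = 4.54e-09), 2.86 after siCCNF (SE 0.12, 7.25-fold, adjusted p = 3.8e-09) and 3.08 after siKEAP1/siCCNF (SE 0.12, 8.46-fold, adjusted p = 3.3e-09). The double depletion was 1.37-fold below siKEAP1 (adjusted p = 0.00451), and 1.17-fold below siCCNF, which did not pass (adjusted p = 0.324, 95% interval of the ratio from 0.722 to 1.01). Of the 10 listed markers of differentiating muscle 7 could be tested. They fell in the same libraries, 7 of 7 after siKEAP1, 6 of 7 after siCCNF and 7 of 7 after siKEAP1/siCCNF, beside 20.2%, 25.5% and 23.6% of all genes. Of the depletions, siKEAP1 had the lowest marker sum (3.58 to 3.86 CPM) but the highest mean of Igfbp5, at 380 CPM. That mean was 323 CPM with siCCNF and 277 CPM with siKEAP1/siCCNF. The part of these markers in the fall of Igfbp5 was not tested.

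Its neighbour Igfbp2, a circulating binding protein that is abundant in fetal life, also fell. It stood at 228, 152 and 139 CPM in the siCONTROL libraries, at 82.0, 72.2 and 81.5 after siKEAP1, at 102, 86.5 and 101 after siCCNF and at 60.7, 65.0 and 89.2 after siKEAP1/siCCNF. No depleted library reached the siCONTROL range. The fall was 1.14 on the log2 scale after siKEAP1 (SE 0.18, adjusted p = 0.000182), 0.84 after siCCNF (SE 0.18, adjusted p = 0.00149) and 1.27 after siKEAP1/siCCNF (SE 0.18, adjusted p = 6.92e-05). For this short gene siCONTROL replicate 1 was the highest library, and without both libraries that follow gene length the falls were 0.90, 0.59 and 1.21.

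Igfbp3, the main carrier of IGFs in blood, fell stepwise. It lies at chr11:7206086-7213923 on the minus strand and stood at 273, 292 and 277 CPM in the siCONTROL libraries, at 177, 180 and 177 after siKEAP1, at 150, 123 and 132 after siCCNF and at 106, 104 and 121 after siKEAP1/siCCNF. The first 3 groups did not overlap with each other, and the double depletion lay just below siCCNF. The fall was 0.66 on the log2 scale after siKEAP1 (SE 0.08, adjusted p = 2.19e-05), 1.06 after siCCNF (SE 0.08, adjusted p = 2.89e-07) and 1.35 after siKEAP1/siCCNF (SE 0.08, adjusted p = 5.88e-08). Between siKEAP1/siCCNF and siCCNF the log2 fold change was -0.29 (adjusted p = 0.0524), and it passed without siCONTROL replicate 1 (-0.30, adjusted p = 0.0248), siCCNF replicate 2 (-0.36, adjusted p = 0.0356) or siKEAP1/siCCNF replicate 3 (-0.37, adjusted p = 0.0195). With all libraries kept, it passed in DESeq2 (adjusted p = 0.0182) and with no filter on low counts (adjusted p = 0.0269). It also passed with at least 10 counts in each library (adjusted p = 0.0486) and with the trend with gene length removed (adjusted p = 0.0142). Igfbp1, the gene beside Igfbp3, had at most 4 counts in any library and was not tested.

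Igfbp4, a binding protein known mainly for restraining IGF action and cleaved by the protease PAPP-A, had the largest rise. It lies at chr11:99041244-99054392 on the plus strand and stood at 8.43, 10.2 and 11.8 CPM in the siCONTROL libraries, at 13.9, 13.5 and 14.6 after siKEAP1, at 80.2, 64.2 and 75.5 after siCCNF and at 86.0, 85.0 and 102 after siKEAP1/siCCNF. The groups did not overlap. The rise was 2.86 on the log2 scale after siCCNF (SE 0.13, 7.25-fold, adjusted p = 5.38e-09), 3.17 after siKEAP1/siCCNF (SE 0.13, 8.99-fold, adjusted p = 3.3e-09) and 0.47 after siKEAP1 (SE 0.13, 1.38-fold, adjusted p = 0.0105). Between siKEAP1/siCCNF and siCCNF the log2 fold change of 0.31 did not pass (SE 0.11, adjusted p = 0.143).

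Igfbp7, which binds IGFs only weakly and is also secreted into the matrix, rose with CCNF depletion. It lies at chr5:77349240-77408041 on the minus strand and stood at 389, 335 and 339 CPM in the siCONTROL libraries, at 261, 250 and 259 after siKEAP1, at 740, 693 and 778 after siCCNF and at 625, 604 and 770 after siKEAP1/siCCNF. The siKEAP1 libraries lie below siCONTROL and both CCNF-depleted groups above it. The rise was 1.06 on the log2 scale after siCCNF (SE 0.09, adjusted p = 1.12e-06) and 0.91 after siKEAP1/siCCNF (SE 0.09, adjusted p = 4.62e-06), and the fall after siKEAP1 was 0.46 (SE 0.09, adjusted p = 0.00127). The span of Igfbp7 overlaps that of Polr2b on the other strand, and whether the counting used strand is not given in the sources used here. Polr2b had 23.2% as many counts as Igfbp7, and its own log2 fold changes were 0.12, -0.23 and -0.09 in the order siKEAP1, siCCNF and siKEAP1/siCCNF. Of the other members, 3 have an opposite-strand neighbour in their span, each with at most 0.117% of the member's counts.

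The rises of Igfbp4 and Igfbp7 stood in libraries in which part of the fibroblast list was also higher. Its 6 genes summed to 170 to 174 CPM after siCCNF and 131 to 154 after siKEAP1/siCCNF, against 52.9 to 78.2 in siCONTROL and 48.8 to 51.2 after siKEAP1. Of the 5 genes tested, 2 rose in each CCNF-depleted group, the matrix proteoglycan gene Dcn by 2.01 and 1.60 on the log2 scale and the PDGF receptor gene Pdgfra by 1.34 and 1.05, while Col15a1 fell after siCCNF. Of all genes 22.5% rose after siCCNF and 20.6% after siKEAP1/siCCNF. The part of the fibroblast list in the rises was not tested.

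Igfbp6, a binding protein that prefers IGF2, rose after siKEAP1 and not after siCCNF. It lies at chr15:102144362-102149511 on the plus strand and stood at 206, 189 and 194 CPM in the siCONTROL libraries, at 448, 404 and 426 after siKEAP1, at 160, 146 and 145 after siCCNF and at 204, 196 and 266 after siKEAP1/siCCNF. The siKEAP1 libraries lie above all others, and the double depletion overlaps with siCONTROL. The rise after siKEAP1 was 1.12 on the log2 scale (SE 0.10, 2.17-fold, adjusted p = 1.73e-06) and the fall after siCCNF 0.39 (SE 0.10, adjusted p = 0.00668). After siKEAP1/siCCNF the log2 fold change was 0.18 (SE 0.10, adjusted p = 0.167, 95% interval of the ratio from 0.974 to 1.32). The double depletion was 1.92-fold below siKEAP1 (adjusted p = 5.79e-06) and 1.48-fold above siCCNF (adjusted p = 0.0058). For this short gene siKEAP1/siCCNF replicate 3 was the highest library of its group. Without both libraries that follow gene length, the double depletion was at 0.06 on the log2 scale against siCONTROL (adjusted p = 0.421). It was then at -1.08 against siKEAP1 (adjusted p = 1.55e-10) and at 0.41 against siCCNF (adjusted p = 9.56e-05). The epithelial list of 4 genes was also highest in siKEAP1, with 41.5 to 46.5 CPM in sum against 10.6 to 16.9 in siCONTROL, 13.8 to 21.1 in siCCNF and 21.2 to 25.0 in siKEAP1/siCCNF. Nearly all of that was the keratin gene Krt14 (log2 fold change 1.75 after siKEAP1, adjusted p = 7.38e-06), while the defining marker Epcam had at most 4 counts in any library. Cdh1, the other tested gene of the list, did not pass after siKEAP1 (-0.18, adjusted p = 0.836). It rose by 1.95 after siCCNF (adjusted p = 0.00307) and by 2.52 after siKEAP1/siCCNF (adjusted p = 0.000435). The part of this list in the rise of Igfbp6 was not tested.

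Of the docking protein genes, Irs2 passed in each depletion and Irs1 in none. Irs2 (chr8:10984681-11008458, minus strand) stood at 11.3, 16.0 and 17.8 CPM in the siCONTROL libraries, at 29.7, 31.5 and 31.8 after siKEAP1, at 23.1, 26.3 and 22.8 after siCCNF and at 28.0, 32.3 and 23.6 after siKEAP1/siCCNF. All 9 depleted libraries lay above the siCONTROL libraries. The rise was 1.05 on the log2 scale after siKEAP1 (SE 0.15, adjusted p = 9.94e-05), 0.68 after siCCNF (SE 0.15, adjusted p = 0.00219) and 0.90 after siKEAP1/siCCNF (SE 0.15, adjusted p = 0.000302). Without both libraries that follow gene length the rises were 0.86, 0.51 and 0.83. Its promoter window holds the antioxidant response element core and the E2F site shown above, as a match of letters only. The same core stands in a window of Igfbp2, which fell in each depletion, and in that of Irs1.

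Irs1 (chr1:82233101-82291416, minus strand) stood at 66.2, 140 and 152 CPM in the siCONTROL libraries, at 80.4, 83.9 and 92.9 after siKEAP1, at 124, 128 and 139 after siCCNF and at 137, 126 and 62.0 after siKEAP1/siCCNF. The low values in siCONTROL and siKEAP1/siCCNF are both from the libraries that follow gene length, 1.14 and 1.08 below the other libraries of their groups on the log2 scale. Irs1 passed in none of the 6 comparisons, with log2 fold changes of -0.48, 0.12 and -0.14 against siCONTROL and adjusted p of 0.211, 0.744 and 0.716. The 95% interval of the ratio to siCONTROL was 0.465 to 1.11 after siKEAP1, 0.71 to 1.67 after siCCNF and 0.589 to 1.39 after siKEAP1/siCCNF. Without siCONTROL replicate 1 alone the log2 fold change after siKEAP1 was -0.78 and passed (adjusted p = 0.013). Without both of those libraries it was also -0.78 (adjusted p = 8.36e-08), and that after siCCNF turned to -0.17 (adjusted p = 0.0387). With all libraries kept, Irs1 also passed after siKEAP1 at -0.49 with no filter on low counts (adjusted p = 0.00501) and at -0.56 with the trend with gene length removed (adjusted p = 0.0457).

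**Figure D3:**
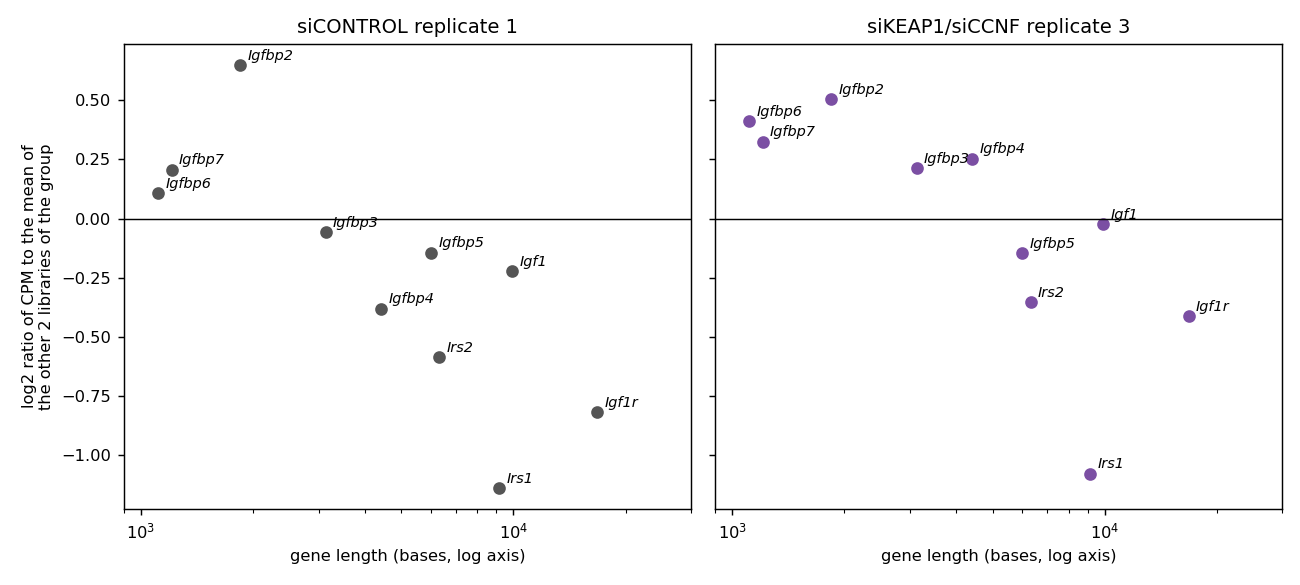
Log2 ratio of CPM in siCONTROL replicate 1 (left) and siKEAP1/siCCNF replicate 3 (right) to the mean of the other 2 libraries of the group, against gene length on a log axis, 1 point per IGF gene. The long Irs1 is lowest in both panels (-1.14 and -1.08) and the short Igfbp2 highest (0.65 and 0.50).

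Leaving both libraries out, 10 members passed with siKEAP1, 10 with siCCNF and 8 with siKEAP1/siCCNF, in place of 8, 9 and 8. The share of all genes that passed rose as well, to 48.6%, 54.6% and 48.8% from 40.6%, 47.9% and 44.2%. Igfbp2, Igf1r and Irs2, with lengths of 1847, 16791 and 6323 bases, were the members that moved most after Irs1 in the comparisons of siKEAP1 and of siCCNF with siCONTROL.

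**Figure D4:**
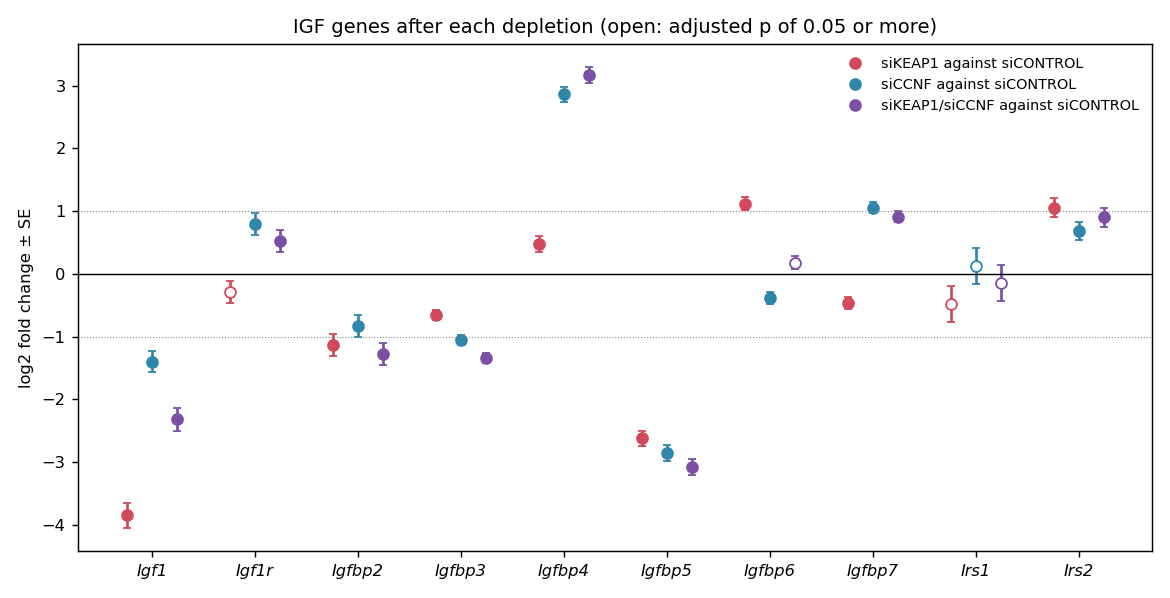
Log2 fold change with its SE for each IGF gene in siKEAP1, siCCNF and siKEAP1/siCCNF against siCONTROL, from edgeR, with filled points at an adjusted p under 0.05 and dotted lines at 2-fold. Igfbp5 lies between -3.08 and -2.62 in all 3, whereas Igf1 is lowest after siKEAP1 (-3.85) and Igfbp4 highest after siKEAP1/siCCNF (3.17).

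Depletion of CCNF on top of KEAP1 changed 7 members. Against siKEAP1, Igf1, Igf1r, Igfbp4 and Igfbp7 were higher and Igfbp3, Igfbp5 and Igfbp6 lower, where 24.1% of all genes were higher and 26.9% lower. The largest was Igfbp4, 6.50-fold higher (log2 fold change 2.70, SE 0.12, adjusted p = 4.02e-09), followed by Igf1 at 2.88-fold and Igfbp7 at 2.60-fold (adjusted p = 8.85e-08). Depletion of KEAP1 on top of CCNF changed few: against siCCNF, Igfbp6 was higher and Igf1 lower, where 3.00% of all genes were higher and 2.19% lower. The 2 members that passed became 4 without siCONTROL replicate 1, and 1 without siCCNF replicate 1 or siKEAP1/siCCNF replicate 2. Of all genes 785 passed in this comparison, and 1404, 363 and 402 in those 3 fits, in that order. Without both libraries that follow gene length 6 members passed in this comparison, Igf1, Igfbp2, Igfbp3 and Igfbp7 as lower and Igfbp6 and Irs2 as higher. The share of all genes that passed rose there as well, to 14.1% from 5.19%.

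Whether the effect of siKEAP1 depended on CCNF was tested as an interaction, the log2 effect in CCNF-depleted cells minus that in control cells. It passed for 5 members, 3 with a positive value and 2 with a negative one, beside 10.6% and 10.5% of all genes. Without both libraries that follow gene length 7 members passed, with Irs1 (0.79, adjusted p = 1.04e-05) and Igf1r (0.38, adjusted p = 0.0026) added, where 30.9% of all genes passed. Igf1 fell by 3.85 with siKEAP1 in control cells and by 0.92 in CCNF-depleted cells, which differ by 2.93 (SE 0.27, adjusted p = 1.32e-05). Igfbp5 fell by 2.62 in control cells, and its log2 fold change in CCNF-depleted cells was -0.22, a difference of 2.40 (SE 0.16, adjusted p = 1.44e-06). The level of Igfbp5 was 380 ± 66.2 CPM (SD, n = 3) with siKEAP1, 323 ± 18.9 with siCCNF and 277 ± 31.1 with both.

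The other 3 interactions were smaller. Igfbp6 rose by 1.12 in control cells and by 0.56 in CCNF-depleted cells, a difference of -0.55 (SE 0.14, adjusted p = 0.0142). Without both libraries that follow gene length the difference was -0.73 (adjusted p = 3.07e-06). For Irs2 the effect was 1.05 in control cells and 0.22 in CCNF-depleted cells, a difference of -0.83 (SE 0.21, adjusted p = 0.0127), and of -0.54 without both libraries that follow gene length (adjusted p = 0.00404). For Igfbp3 it was -0.66 and -0.29, a difference of 0.37 (SE 0.11, adjusted p = 0.0339), which missed the threshold (adjusted p from 0.0521 to 0.0914) without any of 8 libraries, namely siCONTROL replicate 2 or 3, each siKEAP1 library, siCCNF replicate 2 or 3 and siKEAP1/siCCNF replicate 3. The value of 0.70 for Igfbp2 did not pass (SE 0.25, adjusted p = 0.0618), but did without siCONTROL replicate 3 (0.84, adjusted p = 0.0256) or siKEAP1/siCCNF replicate 1 (0.81, adjusted p = 0.0452). With all libraries kept, it passed in DESeq2 (0.70, adjusted p = 0.0308) and with no filter on low counts (0.71, adjusted p = 0.000297). It also passed with the trend with gene length removed (0.71, adjusted p = 0.0149). Without siCONTROL replicate 1 it was 0.45 (adjusted p = 0.0907), and without both libraries that follow gene length it was 0.27 (adjusted p = 0.0674). That of 0.32 for Igfbp7 did not pass (adjusted p = 0.104), but did with the trend with gene length removed (0.34, adjusted p = 0.0121). Keap1 mRNA itself fell by 2.80 with siKEAP1 in control cells and by 1.82 in CCNF-depleted cells, a difference of 0.98 (SE 0.11, adjusted p = 6.99e-05). The part of this weaker depletion, and of the lower Ccnf mRNA in siKEAP1, in the interactions was not tested.

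**Figure D5:**
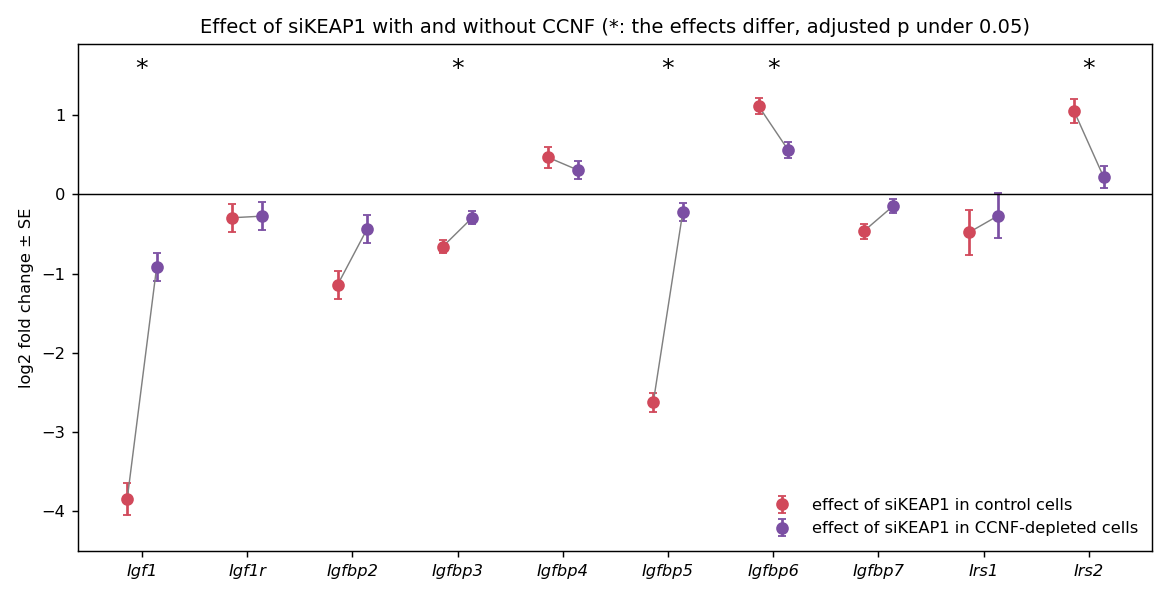
Log2 fold change with its SE for the effect of siKEAP1 in control cells (siKEAP1 against siCONTROL) and in CCNF-depleted cells (siKEAP1/siCCNF against siCCNF), joined per gene, with a star where the 2 effects differ at an adjusted p under 0.05. The lines are steepest for Igf1 (-3.85 to -0.92) and Igfbp5 (-2.62 to -0.22).

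Of the other genes of the pathway, 60 of 65 could be tested. With siKEAP1, 11 of them rose and 11 fell. With siCCNF, 15 rose and 18 fell, and with siKEAP1/siCCNF, 12 rose and 23 fell. In all, 36.7%, 55.0% and 58.3% of the 60 passed, beside 40.6%, 47.9% and 44.2% of all genes tested. The median size of their change was 0.21, 0.30 and 0.32 on the log2 scale, against 0.30, 0.37 and 0.34 for all genes tested. Between siKEAP1/siCCNF and siCCNF a single gene passed, Cited2, a transcriptional coregulator often named as a FOXO target, with a log2 fold change of 0.33 (adjusted p = 0.019), beside 5.19% of all genes.

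The proteases and regulators of binding proteins had a median size of change of 1.45 with siKEAP1, 0.37 with siCCNF and 0.58 with siKEAP1/siCCNF on the log2 scale, beside 0.30, 0.37 and 0.34 for all genes tested. Of 6 genes, 5 passed with siKEAP1, 4 with siCCNF and 3 with siKEAP1/siCCNF, beside 40.6%, 47.9% and 44.2% of all genes. Stc1, a stanniocalcin that inhibits PAPP-A, stood at 4.72 to 5.10 CPM in the siCONTROL libraries and at 0.700 to 1.67 CPM in the depleted ones, and fell by 2.05 with siKEAP1 (log2, adjusted p = 1.67e-05), 2.44 with siCCNF (adjusted p = 2.8e-06) and 1.81 with siKEAP1/siCCNF (adjusted p = 3.38e-05). Stc2, its relative, fell after siKEAP1 by 1.49 (adjusted p = 0.00116). Pappa, which encodes PAPP-A, rose after siKEAP1 by 1.64 (SE 0.52, adjusted p = 0.0224) and after siCCNF by 2.10 (SE 0.50, adjusted p = 0.00386), from siCONTROL libraries at 0.135, 1.57 and 0.963 CPM, the lowest being 1 of the libraries that follow gene length. Without that library the rises of Pappa were 1.09 (adjusted p = 0.0452) and 1.56 (adjusted p = 0.00497). Pappa2, a protease of other binding proteins, rose after siKEAP1 by 1.40 (adjusted p = 0.006) from a mean of 0.570 CPM. All 4 genes are of low level in these cells.

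Among the adaptors at the receptor, 2 of 12 tested passed with siKEAP1, 5 with siCCNF and 10 with siKEAP1/siCCNF. These are 16.7%, 41.7% and 83.3%, beside 40.6%, 47.9% and 44.2% of all genes. Irs3, a docking protein gene with at most 1.03 CPM in any library, fell by 1.70 after siCCNF (adjusted p = 0.00449) and by 1.47 after siKEAP1/siCCNF (adjusted p = 0.0121). Grb10, an adaptor that dampens receptor signalling, fell by 2.11 after siKEAP1/siCCNF (SE 0.78, adjusted p = 0.0436) from 0.787 ± 0.437 CPM (SD, n = 3). Without both libraries that follow gene length neither Irs3 (-1.19, adjusted p = 0.0847) nor Grb10 (-2.37, adjusted p = 0.059) passed after siKEAP1/siCCNF, and without siCONTROL replicate 1 alone Grb10 was at -1.64 (adjusted p = 0.153).

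In the phosphoinositide 3-kinase, AKT and mTOR arm, 9 of 28 genes passed with siKEAP1, 17 with siCCNF and 13 with siKEAP1/siCCNF. These are 32.1%, 60.7% and 46.4%, beside the same shares of all genes. Rps6kb1, which encodes the ribosomal S6 kinase, fell by 1.08 on the log2 scale after siCCNF (adjusted p = 1.95e-07) and by 1.09 after siKEAP1/siCCNF (adjusted p = 2.41e-07), from 76.8 ± 2.40 CPM to 36.3 ± 2.90 and 36.1 ± 3.13 CPM (SD, n = 3). Inpp5d, a lipid phosphatase of blood cells, had 0, 4 and 4 counts in the siCONTROL libraries and 44, 96 and 60 after siKEAP1, a log2 fold change of 4.40 that depends on few counts (SE 0.58, adjusted p = 4.61e-05). It also rose after siCCNF, by 1.83 (SE 0.68, adjusted p = 0.0405), which missed the threshold without siCONTROL replicate 1 (1.21, adjusted p = 0.125). Of the leukocyte list, Cd68 alone was tested and rose by 2.90 after siKEAP1, and the list summed to 5.39 to 10.1 CPM there and 0.672 to 1.36 CPM in siCONTROL. Cd68 also rose after siCCNF (1.25, adjusted p = 0.0132) and after siKEAP1/siCCNF (1.55, adjusted p = 0.00389). The list summed to 1.51 to 3.03 and 2.18 to 3.56 CPM in those groups. Ptprc, the defining leukocyte marker, was at 0 in every library outside siKEAP1.

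Of the FOXO factors and genes named as their targets, 6 of 12 passed with siKEAP1, 6 with siCCNF and 8 with siKEAP1/siCCNF. Of all genes 40.6%, 47.9% and 44.2% passed there. Sesn3, a sestrin that restrains mTOR, fell by 1.30 after siCCNF (adjusted p = 6.06e-06) and by 1.40 after siKEAP1/siCCNF (adjusted p = 3.81e-06). Bnip3, a mitophagy receptor gene, fell by 1.05 after siKEAP1/siCCNF (adjusted p = 2.49e-06).

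The genes most like the 2 members of widest range were found by Pearson's r of log2 CPM over the 12 libraries among 11824 genes. For Igf1 they were Ogn (0.99), Ptgfrn (0.987) and Nab2 (0.987), and for Igfbp4 Snhg6 (0.994), C1s1 (0.992) and Syt11 (0.992). The 12 points fall into 4 groups of 3, so these values describe the pattern over 4 group means and carry no test.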

How the data were processed

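Polyadenylated RNA of 12 C2C12 libraries in 4 groups of 3 was sequenced. The authors deposited 1 table with raw read counts per gene, FPKM values scaled by their service provider, gene lengths, and their own comparisons (fold changes and p-values), which were not used. The submitters' processing notes name HISAT2 and GRCm39, but the coordinates in the table are those of GRCm38, and 10 of 10 members have the same coordinates in GENCODE M21. The counting tool and annotation are not given in the sources used here. The labels give 5% serum, and the siRNA that targets Ccnf and its share of the 30 nM are not given there.

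Counts were fitted with edgeR 4.0.16 in R 4.3.3 (filterByExpr, TMM, quasi-likelihood, 4 group means, all 12 libraries), with Benjamini-Hochberg adjustment over 15122 genes. The SE is the log2 fold change divided by the root of the F statistic, and 95% intervals are from it. CPM use TMM-scaled library sizes. Deposited FPKM were used for levels between genes and as an alternative with limma 3.58.1, with a pseudocount of 1 or 0.1. DESeq2 1.42.0, library sizes without TMM, no filter or at least 10 counts in each library, a replicate block, removal of a gene length trend, the compared libraries alone, each library left out, and both libraries that follow gene length left out were the other alternatives. Libraries of a group differed by more than sampling noise (chi-square per gene of 2.84 to 39.9). Each p-value sets a difference against the spread between libraries of a group. That spread was pooled over the 4 groups, with the 2 libraries that follow gene length included, and moderated across genes. It covers cultures of 1 line only. The fit was tested on simulated data.

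The members, the pathway and marker lists and the tests were chosen with earlier results of these data known. Named are the 10 members, the targeted genes, and pathway genes that passed with over 2-fold in any depletion against siCONTROL. A gene that this rule names is not reported here. Insr, Igf2r, Igf2, Igfbp1, Cited2, Polr2b, Dcn, Pdgfra, Col15a1, Cd68, Ptprc, Krt14, Epcam, Cdh1, Fabp4 and Tek were named after their values were seen. Promoter sequences are from RefSeq (GRCm38.p6), which had 11 windows for the 10 members. In 8 of these the last 20 bases were found in a GENCODE transcript of the gene.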

Additional observations from a re-analysis of the deposited data

Results flagged for a closer look

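For 5 of the IGF genes the log2 effect of siKEAP1 differed between CCNF-depleted and control cells by the interaction term of edgeR, with values of 2.93 for Igf1, 2.40 for Igfbp5, 0.37 for Igfbp3, -0.55 for Igfbp6 and -0.83 for Irs2. For Igf1 and Igfbp5 the term passed in each of the 12 fits that left out a library, between 2.70 and 3.15 and between 2.29 and 2.54. For all 5 the estimated effect in CCNF-depleted cells had the same sign and was the smaller, as shown in the plot of the effect of siKEAP1 with and without CCNF. For Igfbp6 and Irs2 the term also passed in each of those 12 fits, and for Igfbp3 in 4 of them.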

How the results depend on the processing

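Over 60 combinations of a member and a comparison, 39 passed, and 22 alternatives gave 1310 values, of which 1250 kept their direction and side of the threshold. No passing combination reversed. Some alternative lost 3 of the 39: Igf1r after siKEAP1/siCCNF, Igf1 between siKEAP1/siCCNF and siCCNF, and the interaction of Igfbp3. Some alternative called 13 of the others. Same-numbered libraries of the groups deviated together weakly or in opposite directions (r between -0.268 and 0.204, with 15 of 36 library and group combinations closest to their own number). The 2 libraries that follow gene length bear different numbers and enter these values, which therefore cannot decide whether the numbers pair the libraries. With the replicate number as a block the interaction of Igfbp3 was 0.366 and missed the threshold (adjusted p = 0.0536), 4 members passed in that test in place of 5, and no other call on a member changed.

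Reversed values were all of combinations that did not pass in the main fit. Only that of Irs1 after siCCNF without both libraries that follow gene length passed when reversed (adjusted p = 0.0387). For Irs1 the reversed values were -0.168 after siCCNF (without siCONTROL replicate 1, and without both libraries that follow gene length), 0.065 and 0.132 after siKEAP1/siCCNF (without siCONTROL replicate 3 and without siKEAP1/siCCNF replicate 3), and 0.006 and 0.005 between siKEAP1/siCCNF and siCCNF (without siKEAP1/siCCNF replicate 3 and without both libraries). For the interaction of Igf1r they were -0.046 and -0.043 with limma on FPKM plus 1 and plus 0.1, and between -0.142 and 0.250 over the 12 fits without a library (-0.142, -0.072, -0.071, -0.020, -0.016 and -0.009 in the 6 that reversed). Without both libraries it was 0.376 and passed (adjusted p = 0.0026), and with Irs1 also gained 7 members passed in that test. Over the same fits the values of Irs1 ran from -0.168 to 0.336 after siCCNF, from -0.441 to 0.132 after siKEAP1/siCCNF and from -0.466 to 0.006 between siKEAP1/siCCNF and siCCNF. The cause was not tested.

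Between siKEAP1/siCCNF and siCCNF, 2 members passed, 4 with no filter and with the length trend removed, 6 without both libraries, and 1 to 4 with a library left out. In that comparison 785 of all genes passed, 1270 with DESeq2, 1194 with the length trend removed, 516 with the compared libraries alone, 2186 without both libraries and 363 to 1404 with a library left out. Of the pathway genes 1 passed there, 2 with DESeq2, without TMM, with at least 10 counts or with the compared libraries alone, 4 with no filter or the length trend removed, 9 without both libraries and 0 to 6 with a library left out. Pathway counts also moved after siKEAP1 (22, and 34 without both libraries), after siKEAP1/siCCNF (35, and 21 with the compared libraries alone) and for the interaction (12, 19 with the length trend removed, 24 without both libraries, 8 to 14 with a library left out). The interaction passed in 3181 of all genes and in 4806 without both libraries.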
